A study of Mus musculus with 6 samples.

Results

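The genes described here are 37 mouse genes induced by interferons or needed for antigen presentation on class I molecules of the major histocompatibility complex (MHC). They were chosen by name, from what is known of their function, but with earlier results of these data known. All 37 were found by symbol among the 56940 genes counted. They comprise 5 transcription factors, 14 antiviral effectors, 6 sensor, ubiquitin and ADP-ribose enzymes, 3 guanylate-binding proteins, 3 immunoproteasome subunits, 3 peptide loading genes and 3 class I chains.

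RNA was sequenced from mouse lens capsules in a model of cataract surgery, in which the fiber cells are taken out through the front of the eye and the capsule stays behind with its attached lens epithelial cells. The 72 h group held 3 libraries of capsules collected 72 h after the operation, and the 0 h group held 3 libraries of capsules collected straight after it. In each mouse one eye was operated on first and the other 72 h later, so every mouse could give a capsule to both groups. Each library pooled 5 capsules. All mice were C57BL/6, labelled wildtype, with no age given. All 6 descriptions carry the tag RUNX_Cre_N, which the sources used here do not explain. Surgery is common to both groups, and no unoperated lens was among the samples, so the comparison is of 72 h with 0 h after the same operation. The p-values measure the spread between pools of capsules. In pooled tissue, fewer cells of a type and less RNA per cell cannot be told apart.

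As background, type I interferons bind the receptor IFNAR and, through the kinases JAK1 and TYK2, activate STAT2, which joins IRF9 in the complex ISGF3. ISGF3 binds interferon-stimulated response elements in the promoters of antiviral genes. Interferon-gamma acts through its own receptor and gamma-activated sites in promoters, and induces IRF1 and NLRC5, the transactivator of the class I genes. Class I molecules, a heavy chain paired with beta-2 microglobulin, show peptides cut by the proteasome and carried into the endoplasmic reticulum by the TAP transporter. The lens is enclosed by its capsule, without blood vessels of its own.

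The letters of the response element were looked for near the start sites. The RefSeq promoter windows of build GRCm38.p6, which run from 250 bases before a start site to 50 after it, were searched on both strands for GAAANNGAAA, the core of the response element, whose other strand reads TTTCNNTTTC. Of the 37 genes, 31 had a window by symbol, and 13 of these 31 (41.9%) held the letters, against 3.99% of 27025 genes with a window. Neighbouring matches in a window may overlap. The 250 bases upstream of 3 genes are shown because these genes turn up in 3 different roles below: B2m (class I light chain, chr2:122147437-122147686, plus strand), Gbp2 (guanylate-binding protein, chr3:142620413-142620662, plus strand) and Isg15 (ubiquitin-like modifier, chr4:156200819-156201068, minus strand). Capitals mark the matches.
B2m: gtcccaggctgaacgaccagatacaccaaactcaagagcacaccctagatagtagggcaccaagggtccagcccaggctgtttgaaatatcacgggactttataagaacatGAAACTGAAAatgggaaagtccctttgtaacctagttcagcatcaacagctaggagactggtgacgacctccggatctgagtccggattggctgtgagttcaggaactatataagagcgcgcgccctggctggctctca
Gbp2: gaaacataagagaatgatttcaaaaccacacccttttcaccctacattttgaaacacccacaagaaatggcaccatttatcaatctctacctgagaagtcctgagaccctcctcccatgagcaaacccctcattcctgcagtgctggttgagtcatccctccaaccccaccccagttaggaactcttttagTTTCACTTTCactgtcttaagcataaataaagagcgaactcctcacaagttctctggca
Isg15: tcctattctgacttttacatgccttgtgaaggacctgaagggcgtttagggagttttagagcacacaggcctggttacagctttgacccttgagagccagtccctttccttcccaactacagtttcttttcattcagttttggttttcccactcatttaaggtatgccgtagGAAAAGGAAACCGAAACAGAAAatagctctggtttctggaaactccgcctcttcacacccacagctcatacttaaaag
Shorter stretches around the first match show how the letters vary between genes.
Stat2: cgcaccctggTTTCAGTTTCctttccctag
Gbp3: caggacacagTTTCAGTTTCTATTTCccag
Gbp7: gtgtgtgcagTTTCAGTTTCagttctccat
Ifit3: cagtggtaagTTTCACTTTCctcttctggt
Oas1a: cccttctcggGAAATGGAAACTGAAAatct
The match in B2m began 139 bases before the start site, that in Gbp2 59 bases before it, and the 3 overlapping matches in Isg15 at 78, 72 and 66 bases before it. The other genes with a match were Bst2, Eif2ak2, Ifih1, Ifit1 and Rsad2, and those of Eif2ak2 and Ifih1 lay after the start site. The letters TTCNNNGAA of the gamma-activated site, which read the same on both strands, were in 8 of the 31 genes (25.8%), against 9.55% of all genes: Bst2, Eif2ak2, Gbp7, Ifi35, Ifit2, Irf1, Oas1a and Psmb8. A match is a run of letters and not a measured binding site.

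Counts in genes were 8453450 to 8945397 per library at 72 h and 11338820 to 12432688 at 0 h. Levels are given as CPM, the counts scaled by TMM to a common library total, and a gene was called where edgeR's quasi-likelihood test gave a Benjamini-Hochberg adjusted p under 0.05 over all 15407 genes with enough counts. One library stood apart, 72 h replicate 3. The summed level of 7 keratinocyte and corneal epithelium markers was 4093 CPM there, against 5.79 and 92.9 CPM in the other 72 h libraries and 19.7 to 44.8 CPM at 0 h. The sum was carried by Krt15, Krt5, Krt13 and Krt14, while Krt12, a corneal keratin, had 0 counts there and Krt1 and Krt10, of the outer skin layers, were at 0.367 and 0.856 CPM. The same library was also highest of the 72 h libraries for 33 of the 37 genes, so the changes of these genes are given with and without it. Of 10 genes listed as lens epithelium markers, which were not tested for absence from fiber cells, 8 fell, against 17.5% of all tested genes. Among them were the lens factor Foxe3 (log2 fold change -2.09, adjusted p = 6.4e-07) and the crystallin Cryaa (-2.64, adjusted p = 9.8e-05). Epha2 rose (0.77, adjusted p = 0.004) and Pax6 was not called (-0.09, adjusted p = 0.575).

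At 72 h, 22 of the 33 tested genes rose, 1 fell and 10 were not called. Over all tested genes, 21.0% rose, 17.5% fell and 38.5% changed in either direction. The median log2 fold change was 1.99 for the 33 genes and -0.02 for all tested genes. Without 72 h replicate 3, 21 of 33 rose, against 21.9% of all genes, 1 fell, against 19.6%, and the median of the 33 was 1.14. In both fits 18 genes rose; Ifih1, Ifit1, Isg15 and Xaf1 rose only with that library, and Bst2, Rnf213 and Trim25 only without it. Every 72 h library lay above every 0 h library for 27 of the 33 genes, against 26.5% of tested genes, and every one lay below for 1 gene, against 26.9%. Replicates 1 and 2 at 72 h were both above every 0 h library for 27 genes as well, against 31.4% of tested genes. Mx1, Rsad2, Ifi44 and Psmb9 had too few counts to be tested. Of the tested genes, Isg15, Oas1a, Bst2 and Gbp3 would not have reached the count minimum from their 0 h libraries alone. The other 29 reached it from those libraries, and 20 of the 29 rose.

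Of the genes whose window held GAAANNGAAA, 12 were tested, 8 rose and 4 were not called, with a median log2 fold change of 2.33. Of the 18 with a window and no match, 16 were tested, 11 rose, 1 fell and 4 were not called, with a median of 1.94. No match means only that these exact letters were missing from the window, not that the response element is absent. In the fit without 72 h replicate 3, 6 of 12 with a match rose (median 1.44), and 12 of 16 without one rose and 1 fell (median 1.02). Over all tested genes 21.0% rose and 17.5% fell, and 21.9% and 19.6% without that library.

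**Figure D1:**
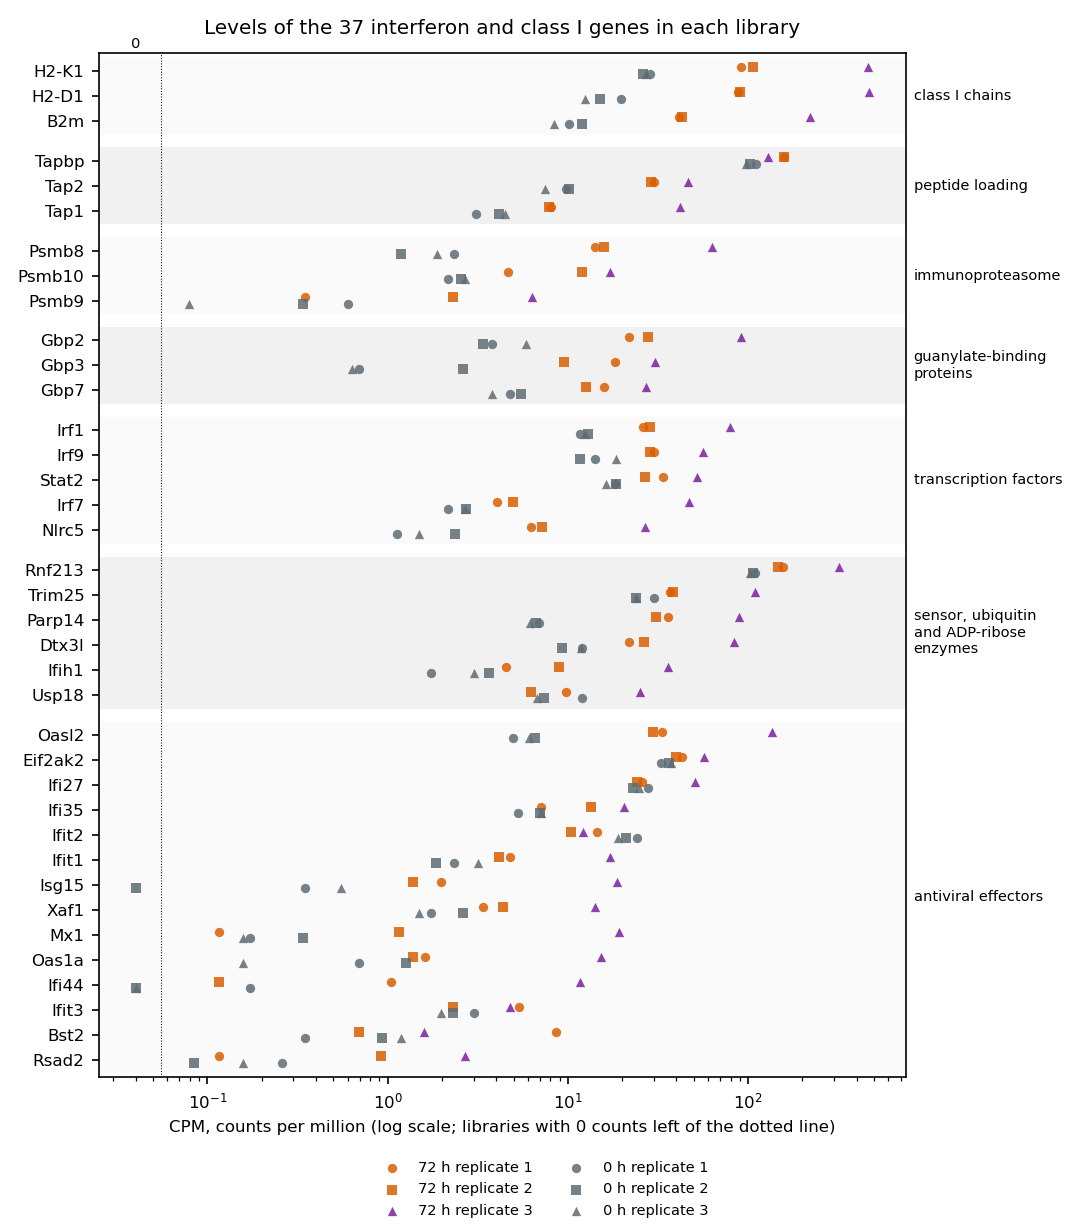
Level of each of the 37 genes in each library, in CPM on a log scale, grouped by role; orange and purple points are 72 h libraries (purple, replicate 3) and grey points are 0 h libraries. For the class I chains all 72 h points lie right of all 0 h points, with replicate 3 at 219 to 467 CPM, and Ifit2 is the one gene with all 72 h points on the left.

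The counts of called genes moved with the libraries used. Leaving out 0 h replicate 1, 2 or 3 left 10, 11 and 11 genes of 35 that rose, against 15.8%, 15.6% and 15.7% of all genes, and 0, 0 and 1 that fell, against 12.0%, 12.0% and 11.7%. Leaving out 72 h replicate 1 gave 30 of 36 that rose, against 18.0%, and leaving out replicate 2 gave 26 of 34, against 18.9%; 1 gene fell in each, against 15.5% and 17.2%. Irf7, Ifi35, Trim25, Oas1a and Rnf213, not called with all libraries, passed without 72 h replicate 1 (adjusted p 0.0111 to 0.0491), and Oas1a, Bst2 and Rnf213 without 72 h replicate 2 (adjusted p 0.0221 to 0.0424). With no count minimum, 17 of all 37 rose, against 12.3%, and 1 fell, against 10.1%. The calls of Stat2, Irf9, Nlrc5, Parp14, Gbp3, Gbp7, Psmb8, Psmb10, Tap2 and Tapbp held in all 15 alternatives run.

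The class I chains rose at 72 h, in every library and by the widest margin in replicate 3. H2-K1 (ENSMUSG00000061232), a classical class I heavy chain, was at 91.8, 107 and 464 CPM at 72 h, against 28.5, 26.1 and 27.1 CPM at 0 h. H2-D1 (ENSMUSG00000073411), the other classical heavy chain of this strain, had 87.4, 89.9 and 467 CPM at 72 h, against 19.7, 15.1 and 12.5 CPM at 0 h. B2m (ENSMUSG00000060802), the shared light chain whose upstream sequence is shown above, was at 41.4, 42.9 and 219 CPM at 72 h, against 10.1, 11.9 and 8.36 CPM at 0 h. The groups did not overlap for any of the 3 genes, and replicates 1 and 2 lay close together while replicate 3 was 4.36 to 5.20-fold above the higher of them. Of all tested genes, 26.5% had every 72 h library above every 0 h library, and 26.9% had every one below. These shares apply to the later statements of no overlap too. The log2 fold changes were 3.02 ± 0.80 for H2-K1 (SE, adjusted p = 0.0438), 3.77 ± 0.92 for H2-D1 (adjusted p = 0.0353) and 3.32 ± 0.86 for B2m (adjusted p = 0.0384). Without 72 h replicate 3 they were smaller and their errors too, at 1.88 ± 0.13 (adjusted p = 4.9e-08), 2.5 ± 0.17 (adjusted p = 5.5e-08) and 2.07 ± 0.20 (adjusted p = 1.7e-06). All 3 lost the call when any one 0 h library was left out, with adjusted p between 0.11 and 0.138, within a range of 4.9e-08 to 0.144 over all alternatives. All 3 also lost it with the replicate number as a block. Per kilobase of exon, H2-D1 averaged 83.3 CPM at 72 h, against 6.12 CPM at 0 h, and H2-K1 75.1 CPM at 72 h, against 9.27 CPM at 0 h. Heavy chain genes are near-identical in parts, so reads could be split between them or dropped in counting.

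The peptide loading genes rose too, by amounts that differed between them. Tap1 (ENSMUSG00000037321), a subunit of the peptide transporter, was at 8.10, 7.86 and 41.6 CPM at 72 h, against 3.11, 4.15 and 4.50 CPM at 0 h. Tap2 (ENSMUSG00000024339), its partner subunit, was at 30.2, 29.0 and 46.2 CPM at 72 h, against 9.77, 10.2 and 7.49 CPM at 0 h. Tapbp (ENSMUSG00000024308), tapasin, which bridges the transporter and the class I molecule, was at 158, 159 and 129 CPM at 72 h, against 110, 103 and 97.6 CPM at 0 h. No groups overlapped, but replicate 3 was 5.13-fold above the other 72 h libraries for Tap1, 1.53-fold for Tap2, and the lowest of the 3 for Tapbp. The log2 fold changes were 2.28 ± 0.69 for Tap1 (adjusted p = 0.0348), 1.94 ± 0.25 for Tap2 (adjusted p = 2.1e-04) and 0.52 ± 0.11 for Tapbp (adjusted p = 0.0053). Without 72 h replicate 3 they were 1.03 (adjusted p = 0.0475), 1.70 (adjusted p = 3.2e-05) and 0.63 (adjusted p = 1.4e-04). Tap1 lost the call without any one 0 h library, with adjusted p between 0.113 and 0.138.

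The immunoproteasome subunits take the place of constitutive catalytic subunits and change which peptides are cut. Psmb8 (ENSMUSG00000024338) was at 14.1, 15.8 and 62.6 CPM at 72 h, against 2.34, 1.19 and 1.89 CPM at 0 h. Psmb10 (ENSMUSG00000031897) was at 4.63, 12.0 and 17.1 CPM at 72 h, against 2.16, 2.54 and 2.68 CPM at 0 h. Both rose without overlap, by 4.09 ± 0.71 (adjusted p = 0.0039) and 2.19 ± 0.49 (adjusted p = 0.0057) on the log2 scale, and by 3.06 and 1.76 without 72 h replicate 3 (adjusted p = 2.1e-05 and 0.0091). Psmb9 (ENSMUSG00000096727), the remaining immune subunit, was not tested and had 75 counts at 72 h and 12 at 0 h. Its depth-corrected ratio was 8.85 (95% interval 4.78 to 17.9, counting error only), and 4.0 (1.91 to 8.81) from replicates 1 and 2. Its groups overlapped, since 72 h replicate 1 was at 0.347 CPM and 0 h replicate 1 at 0.605 CPM.

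The constitutive partners were not called. Psmb5, Psmb6 and Psmb7, the subunits replaced, had log2 fold changes of 0.02 (adjusted p = 0.967), -0.31 (adjusted p = 0.145) and -0.50 (adjusted p = 0.112). Of 16 constitutive proteasome genes 3 rose and 0 fell, with a median log2 fold change of 0.06 and the same counts and median without 72 h replicate 3, against the 21.0% of all tested genes that rose; Psma7 rose by 0.65 (adjusted p = 0.0014) and Psme4 by 0.50 (adjusted p = 0.0196) on that scale. Per kilobase of exon, Psmb8 was 52.3%, 32.5% and 194% of Psmb5 at 72 h and 7.64%, 2.70% and 5.96% at 0 h. Psmb10 was 33.2%, 70.7% and 185% of Psmb7 at 72 h and 13.5%, 11.5% and 14.2% at 0 h. Psmb9 was 0.377%, 2.14% and 8.06% of Psmb6 at 72 h and 0.591%, 0.260% and 0.0692% at 0 h. In replicate 3 alone, Psmb8 and Psmb10 stood above their partners. These percentages depend on the length used, which joins all annotated exons of a gene. It was 3.38 kb for Psmb8, 3.66 kb for Psmb9 and 1.71 kb for Psmb10.

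**Figure D2:**
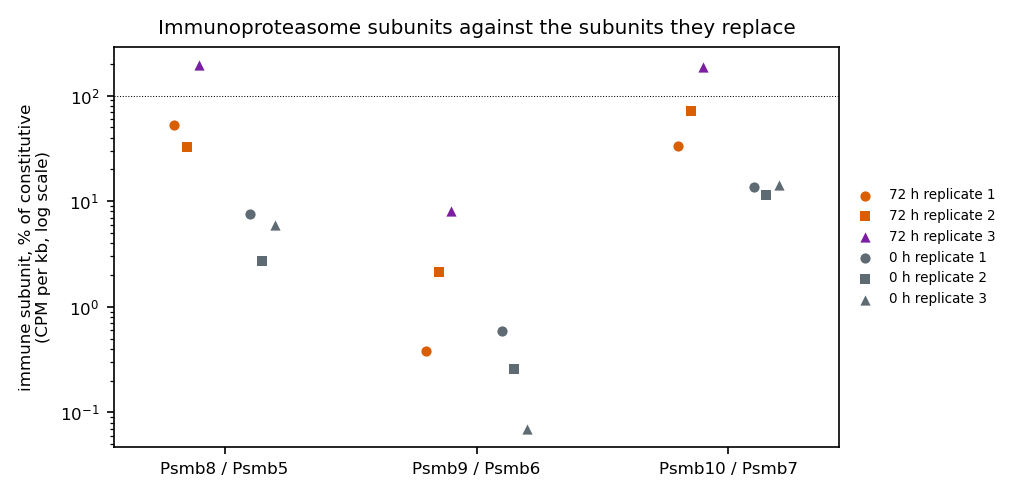
Level per kilobase of each immune subunit as a percentage of the constitutive subunit it replaces, on a log scale, in each 72 h and 0 h library; the dotted line marks equal levels. The Psmb8 and Psmb10 points of 72 h lie above those of 0 h, and those of replicate 3 reach 194% and 185%, while the Psmb9 points overlap between the groups.

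The guanylate-binding proteins, large GTPases that attack the membranes around intracellular microbes, all rose. Gbp2 (ENSMUSG00000028270) was at 21.9, 27.8 and 91.6 CPM at 72 h, against 3.81, 3.39 and 5.84 CPM at 0 h. Gbp3 (ENSMUSG00000028268) was at 18.2, 9.47 and 30.6 CPM at 72 h, against 0.692, 2.62 and 0.631 CPM at 0 h. Gbp7 (ENSMUSG00000040253) was at 15.9, 12.6 and 27.1 CPM at 72 h, against 4.76, 5.50 and 3.79 CPM at 0 h. None of the 3 overlapped between groups. The log2 fold changes were 3.43 ± 0.66 for Gbp2 (adjusted p = 0.0088), 3.87 ± 0.65 for Gbp3 (adjusted p = 0.0017) and 1.98 ± 0.35 for Gbp7 (adjusted p = 0.0015), and 2.52, 3.4 and 1.61 without 72 h replicate 3 (adjusted p = 1.0e-05, 4.0e-04 and 0.0011). Gbp2 lost the call without 0 h replicate 1 (adjusted p = 0.0513), and Gbp3 had a log2 fold change of 4.83 without 0 h replicate 2. All 3 genes lie in one cluster of related genes, so their counts are uncertain where reads match several of them.

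Of the 5 transcription factors, 4 rose, against 21.0% of all tested genes. Nlrc5 (ENSMUSG00000074151), the class I transactivator, was at 6.25, 7.16 and 26.9 CPM at 72 h, against 1.12, 2.37 and 1.5 CPM at 0 h. Irf1 (ENSMUSG00000018899), an activator downstream of interferon-gamma, was at 26.0, 28.6 and 79.5 CPM at 72 h, against 11.7, 13.0 and 12.4 CPM at 0 h. The ISGF3 subunits were Stat2 (ENSMUSG00000040033), at 33.8, 26.9 and 52.3 CPM at 72 h, against 18.2, 18.5 and 16.2 CPM at 0 h, and Irf9 (ENSMUSG00000002325), at 30, 28.6 and 56.3 CPM at 72 h, against 14.2, 11.7 and 18.6 CPM at 0 h. The groups of all 4 genes were apart. The log2 fold changes were 3.00 ± 0.63 for Nlrc5 (adjusted p = 0.0043), 1.85 ± 0.44 for Irf1 (adjusted p = 0.0137), 1.09 ± 0.24 for Stat2 (adjusted p = 0.0055) and 1.37 ± 0.29 for Irf9 (adjusted p = 0.0047). Without 72 h replicate 3 they were 2.01, 1.16, 0.79 and 0.99, all called. Irf1 lost the call without any one 0 h library (adjusted p 0.0559 to 0.0656). Irf7 (ENSMUSG00000025498), which amplifies type I interferon production, was at 4.05, 4.97 and 47.2 CPM at 72 h, against 2.16, 2.71 and 2.68 CPM at 0 h. It was not called (log2 fold change 2.89 ± 1.08, adjusted p = 0.0863) although its groups did not overlap, and its value was 0.85 without 72 h replicate 3.

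Of the 6 sensor, ubiquitin and ADP-ribose enzymes, 3 rose, against 21.0% of all tested genes. Parp14 (ENSMUSG00000034422), an ADP-ribosyltransferase, was at 36.1, 30.8 and 89.0 CPM at 72 h, against 6.92, 6.69 and 6.15 CPM at 0 h. Dtx3l (ENSMUSG00000049502), a ubiquitin ligase that pairs with PARP9, was at 21.8, 26.5 and 83.0 CPM at 72 h, against 12.0, 9.23 and 11.8 CPM at 0 h. Ifih1 (ENSMUSG00000026896), which encodes the double-stranded RNA sensor MDA5, was at 4.51, 8.90 and 36.0 CPM at 72 h, against 1.73, 3.64 and 3.00 CPM at 0 h. The 72 h libraries were above the 0 h libraries for all 3 genes. The log2 fold changes were 2.98 ± 0.42 for Parp14 (adjusted p = 0.001), 1.99 ± 0.55 for Dtx3l (adjusted p = 0.032) and 2.55 ± 0.78 for Ifih1 (adjusted p = 0.0353), and without 72 h replicate 3 they were 2.36, 1.14 and 1.27, the last not called (adjusted p = 0.0549). Dtx3l and Ifih1 also lost the call without any one 0 h library (adjusted p 0.0924 to 0.138). The uncalled enzymes were Rnf213, a ubiquitin ligase, at 207 ± 95.5 CPM at 72 h, against 106 ± 2.89 CPM at 0 h (SD, n = 3 each; edgeR adjusted p = 0.0503), Trim25, the ligase that activates RIG-I, at 61.3 ± 40.9 and 26.0 ± 3.59 CPM (edgeR adjusted p = 0.0814), and Usp18, which removes ISG15, at 13.7 ± 10 and 8.70 ± 2.90 CPM (edgeR adjusted p = 0.338). Without 72 h replicate 3, Rnf213 and Trim25 were called, with log2 fold changes of 0.53 and 0.55, and Usp18 was at -0.11.

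The antiviral effectors were the most mixed of the groups, with 4 that rose, 1 that fell, 6 not called and 3 not tested. Over all tested genes 21.0% rose and 17.5% fell. Without 72 h replicate 3, 2 of the 11 tested effectors rose and 1 fell, against 21.9% and 19.6% of all tested genes. Oasl2 (ENSMUSG00000029561), of the oligoadenylate synthetase family, was at 33.2, 29.6 and 135 CPM at 72 h, against 4.93, 6.60 and 6.07 CPM at 0 h. Isg15 (ENSMUSG00000035692), the ubiquitin-like modifier shown above, was at 1.97, 1.39 and 18.8 CPM at 72 h, against 0.346, 0 and 0.552 CPM at 0 h. Neither gene overlapped between groups, and for both the bulk of the signal was in replicate 3. Ifit1 (ENSMUSG00000034459), which binds foreign RNA ends, was at 4.75, 4.16 and 17.2 CPM at 72 h, against 2.34, 1.86 and 3.16 CPM at 0 h. Xaf1 (ENSMUSG00000040483), a promoter of cell death, was at 3.36, 4.39 and 14.1 CPM at 72 h, against 1.73, 2.62 and 1.5 CPM at 0 h. The log2 fold changes were 3.49 ± 0.74 for Oasl2 (adjusted p = 0.0168), 4.55 ± 1.33 for Isg15 (adjusted p = 0.0288), 1.82 ± 0.59 for Ifit1 (adjusted p = 0.0349) and 1.89 ± 0.61 for Xaf1 (adjusted p = 0.0332). Without 72 h replicate 3 only Oasl2 of these 4 was called (2.43, adjusted p = 1.7e-06); Isg15 was at 2.44 (adjusted p = 0.102), Ifit1 at 0.87 (adjusted p = 0.205) and Xaf1 at 1.00 (adjusted p = 0.188). All 4 lost the call without any one 0 h library (adjusted p 0.0669 to 0.129), and Isg15 was at 5.32 without 0 h replicate 3.

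Ifit2 (ENSMUSG00000045932), a relative of Ifit1, fell. It was at 14.5, 10.4 and 12.1 CPM at 72 h, against 24.1, 21.0 and 19.0 CPM at 0 h, with no overlap. Its log2 fold change was -0.79 ± 0.22 (adjusted p = 0.0186), and -0.77 without 72 h replicate 3; the call was lost without 0 h replicate 1 (adjusted p = 0.088) or 0 h replicate 2 (adjusted p = 0.0602). Ifit3, the partner of Ifit1 and Ifit2 in one complex, was at 4.13 ± 1.60 CPM at 72 h, against 2.43 ± 0.542 CPM at 0 h (SD, n = 3 each; edgeR log2 fold change 0.77, adjusted p = 0.275), and its log2 fold change was 0.66 without 72 h replicate 3. The Ifit genes are related in sequence and their counts are uncertain to that extent.

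Of the other uncalled effectors, Oas1a, an oligoadenylate synthetase, was at 1.62, 1.39 and 15.3 CPM at 72 h, against 0.692, 1.27 and 0.158 CPM at 0 h, which do not overlap (adjusted p = 0.0533). Its log2 fold change was 3.09, and 1.10 without 72 h replicate 3. Bst2, tetherin, which holds budding viruses to the cell, was the one gene at least 2-fold higher in 72 h replicate 1 than in both other 72 h libraries, at 8.57, 0.693 and 1.59 CPM at 72 h, against 0.346, 0.931 and 1.18 CPM at 0 h. It overlapped between groups, with a log2 fold change of 2.12 (adjusted p = 0.108), 0.46 without 72 h replicate 1 and 2.49 without 72 h replicate 3 (adjusted p = 0.0419). Ifi35 was at 13.7 ± 6.75 CPM at 72 h, against 6.47 ± 1.03 CPM at 0 h (SD, n = 3 each; edgeR adjusted p = 0.0533). Eif2ak2, the RNA-activated kinase PKR, was at 46.6 ± 9.15 and 35.6 ± 2.38 CPM (edgeR adjusted p = 0.0934), and Ifi27 at 33.7 ± 15.0 and 25.2 ± 2.39 CPM (edgeR adjusted p = 0.264). On the log2 scale the fold changes of Ifi35, Eif2ak2 and Ifi27 were 1.08, 0.39 and 0.42, and 0.67, 0.23 and 0.00 without 72 h replicate 3, where none was called.

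The untested effectors had most of their 72 h counts in replicate 3. Mx1, a GTPase that traps viral particles, had 167 counts at 72 h, against 8 at 0 h, a depth-corrected ratio of 29.5 (95% interval 14.7 to 69.6), and 2.87 (1.05 to 8.21) from replicates 1 and 2. Ifi44 had 106 counts at 72 h, against 2 at 0 h, a ratio of 75.0 (20.3 to 627), and 10.4 (2.22 to 97.8) from replicates 1 and 2. Rsad2, viperin, had 31 counts at 72 h, against 6 at 0 h, a ratio of 7.31 (3.01 to 21.4), and 3.13 (0.994 to 10.7) from replicates 1 and 2. These intervals cover counting error only, and reads without molecular identifiers are not independent molecules.

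**Figure D3:**
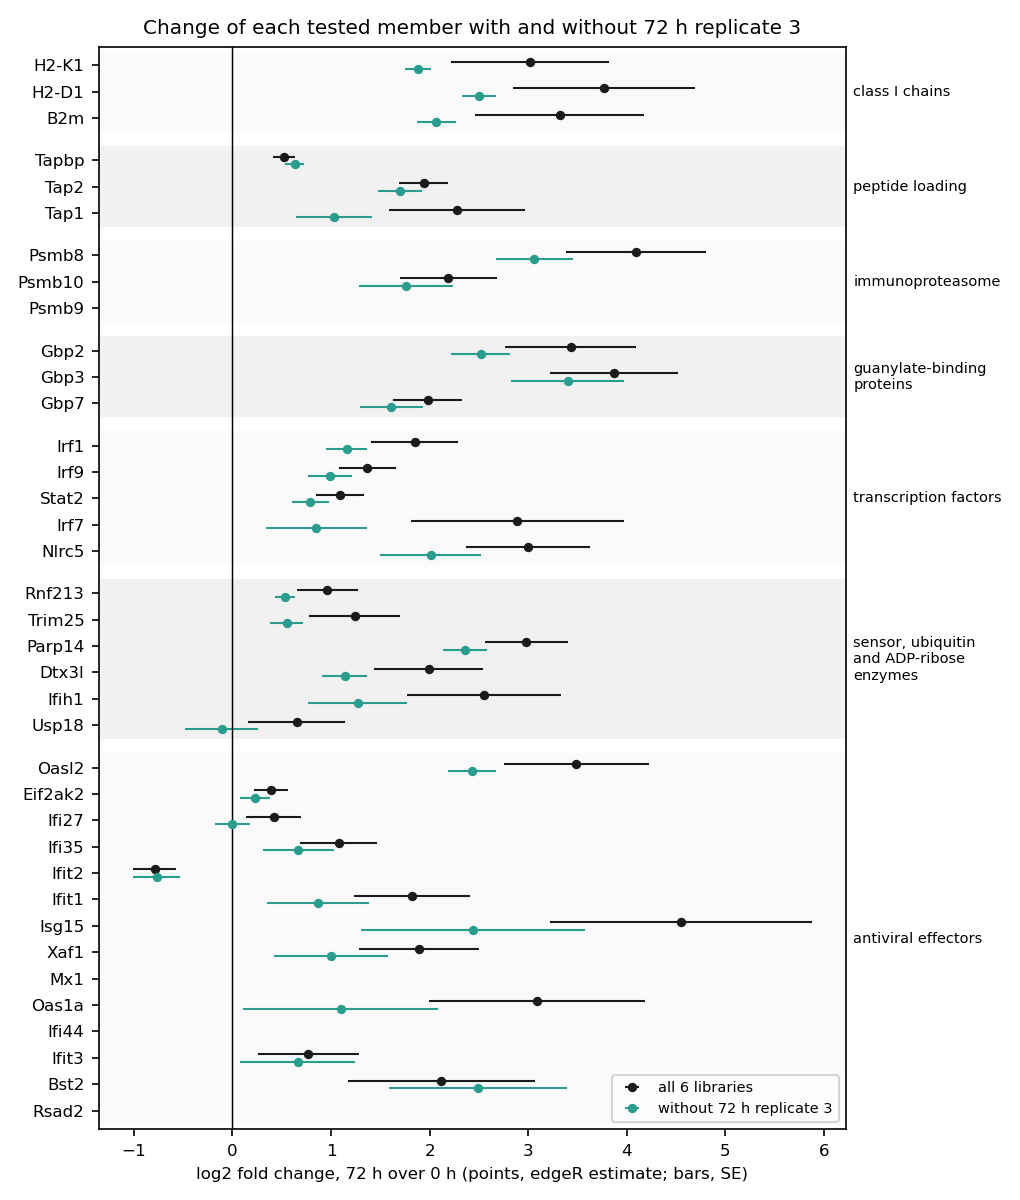
Log2 fold change, 72 h over 0 h, of each tested gene with its SE from edgeR, from all 6 libraries (black) and without 72 h replicate 3 (green); rows without points were not tested. Most green points lie nearer 0 than the black ones and have shorter bars, and Ifit2 is at -0.79 and -0.77.

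The excess of replicate 3 ran through most of the genes. It was at least 2-fold above both other 72 h libraries for 20 of the 33 tested genes, against 6.83% of all tested genes, and for 24 of all 37. The same count was 1 for 72 h replicate 1, against 3.90% of tested genes, and 0 for 72 h replicate 2, against 3.58%. Among the 0 h libraries it was 0, 1 and 0 for replicates 1, 2 and 3, against 2.71%, 2.20% and 2.01%. The ratio of replicate 3 to the higher of the other 72 h libraries had a median of 2.82 over the 37 genes and 0.858 over all tested genes, and ran from 0.186 for Bst2 to 16.5 for Mx1. Ifit2, Ifit3, Bst2 and Tapbp were the 4 genes for which replicate 3 was not the highest.

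**Figure D4:**
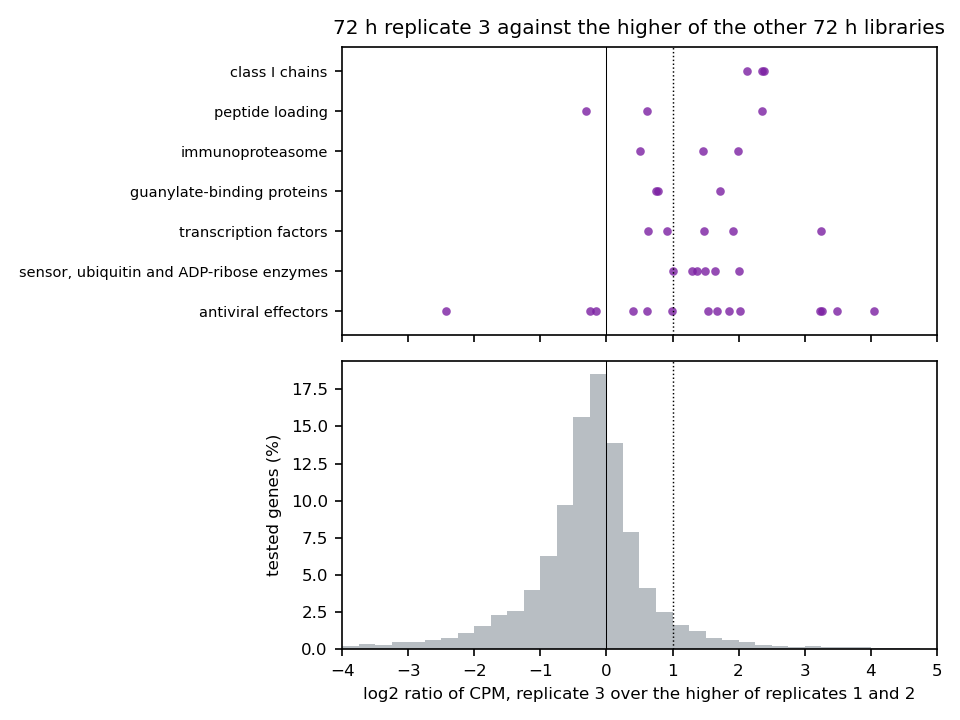
Log2 ratio of CPM in 72 h replicate 3 to the higher of 72 h replicates 1 and 2, for the 37 genes by role (top) and as percentages of all tested genes (bottom); the dotted line marks a 2-fold excess. Of the 37 genes 24 lie at or right of that line, while the bulk of all tested genes lies around 0.

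Upstream of these genes, the interferons themselves were barely counted. Of 21 interferon genes, 19 had no count in any library, Ifnb1 and Ifng among them. Ifnk had 0, 2 and 6 counts and Ifnl2 0, 0 and 12 counts at 72 h, and neither had any at 0 h. A library with 0 counts of a gene allows a true level of up to 3 counts. The tested receptor chains and the receptor kinases rose, where 21.0% of all tested genes rose. Jak2, a kinase of the interferon-gamma receptor, was at 84.0 ± 14.1 CPM at 72 h, against 32.9 ± 2.72 CPM at 0 h (SD, n = 3 each; log2 fold change 1.35, edgeR adjusted p = 9.8e-05). Bracketed values from here on are log2 fold changes, 72 h over 0 h. The kinases Tyk2 (1.46, edgeR adjusted p = 3.8e-04) and Jak1 (0.54, edgeR adjusted p = 0.0012) also rose. The receptor chains Ifngr2 (1.44, adjusted p = 1.3e-04), Ifngr1 (1.10, adjusted p = 0.005), Ifnar2 (1.44, adjusted p = 0.0441) and Ifnar1 (0.56, adjusted p = 0.0095) rose as well. All of these kinase and receptor genes were called without 72 h replicate 3 too. They were at 1.23 for Jak2, 1.41 for Tyk2, 0.59 for Jak1, 1.31 for Ifngr2, 0.88 for Ifngr1, 1.41 for Ifnar2 and 0.62 for Ifnar1. The receptor chains Ifnlr1 and Il10rb had too few counts to be tested. Ifnlr1 had 1, 2 and 30 counts at 72 h, against 9, 6 and 4 at 0 h. Il10rb had 2, 24 and 0 counts at 72 h, against 1, 7 and 0 at 0 h.

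Among 5 inhibitors of the pathway 3 rose and 1 fell. The shares of all tested genes, for this and the next 2 lists, were 21.0% and 17.5%. Socs3, which blocks cytokine receptor kinases, was at 139 ± 7.82 CPM at 72 h, against 7.92 ± 0.887 CPM at 0 h (SD, n = 3 each; log2 fold change 4.13, edgeR adjusted p = 5.2e-08), and Pias1, a SUMO ligase, fell by 0.91 on the log2 scale (adjusted p = 0.0011). Of 15 tested nucleic acid sensors and adaptors, 9 rose and 1 fell, among them Sting1, the adaptor of cytosolic DNA sensing (2.80, adjusted p = 2.7e-04), and Mavs, the adaptor of the RNA sensors (-0.77, adjusted p = 0.0054). Of 4 other interferon regulatory factors 2 rose, Irf5 (5.72, adjusted p = 7.4e-05) and Irf8 (1.53, adjusted p = 0.0109). Irf5 had 6, 0 and 6 counts at 0 h and reached the count minimum only through the 72 h libraries. Socs1, Cgas, Zbp1, Ifi204 and Aim2, which also rose, would not have reached it from their 0 h libraries alone. In these 3 lists the counts of rising and falling genes were the same without 72 h replicate 3, against 21.9% and 19.6% of all tested genes.

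Further interferon-stimulated genes outside the 37 gave 22 of 36 that rose and 0 that fell, and 17 and 1 of 37 without 72 h replicate 3, with medians of 1.68 and 1.05. For this list and those below, 21.0% of all tested genes rose and 17.5% fell, and 21.9% and 19.6% without that library. Zc3hav1, which degrades viral RNA, rose (1.80, adjusted p = 4.0e-05), as did Apobec3, a cytidine deaminase (1.83, adjusted p = 3.3e-04). Of 7 other interferon-gamma targets 4 rose, such as the GTPases Gbp9 (2.77, adjusted p = 8.4e-04) and Irgm1 (2.73, adjusted p = 0.0013). Of 13 further class I genes 8 rose, such as H2-T23, a non-classical heavy chain, at 36.6 ± 20.5 CPM at 72 h, against 0.729 ± 0.241 CPM at 0 h (SD, n = 3 each; 5.64, edgeR adjusted p = 2.1e-05), and the chaperone Calr (1.42, adjusted p = 7.1e-06). Of 8 class II genes 6 rose, such as Ctss, a protease of the class II pathway (3.57, adjusted p = 3.4e-04), and the class II chain H2-Ab1 (2.02, adjusted p = 5.7e-04). H2-T23 had 11, 9 and 6 counts at 0 h and, like Irf5, passed the count minimum only through the 72 h libraries. Oas2, Ifitm1, Sp100, Ifi203, Ifi205, Epsti1, Rtp4, Slfn5 and Gbp8, which rose, would not have reached it from 0 h libraries alone. When 72 h replicate 3 was left out, 5 of 9 tested interferon-gamma targets rose, 8 of 13 class I genes rose and 1 fell, and 7 of 8 class II genes rose.

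Markers of other cells moved as well. For comparison, 21.0% of all tested genes rose and 17.5% fell, and 21.9% and 19.6% without 72 h replicate 3. Macrophage and monocyte markers rose for 13 of 16 tested genes, and their sum was 327, 418 and 229 CPM at 72 h, against 36.0, 33.4 and 51.0 CPM at 0 h, with Lyz2 (3.75, adjusted p = 0.004) and Csf1r (2.21, adjusted p = 0.0016) the highest in mean level over all 6 libraries. Of the 72 h libraries this sum was lowest in replicate 3, but its members differed: Lyz2 was at 108, 169 and 61.6 CPM at 72 h, Itgam at 42.5, 31.9 and 61.4 CPM and Cd68 at 5.67, 5.08 and 11.5 CPM. Among the 13 that rose, Adgre1, Cd68, Cd14, Fcgr1, Itgam, Ccr2, Tyrobp and Fcer1g would not have reached the count minimum from 0 h libraries alone. Neutrophil markers summed to 48.0, 24.4 and 165 CPM at 72 h, against 1.47, 0.931 and 2.45 CPM at 0 h, with Mpo, Ngp, Ly6g and Camp at 0 throughout. Ltf, also made by epithelia, held 135 CPM of the sum in 72 h replicate 3. Of 3 tested neutrophil markers 2 rose, Csf3r and Cxcr2. Csf3r was at 29.4, 17.6 and 22.7 CPM at 72 h, against 1.04, 0.847 and 1.34 CPM at 0 h (4.41, edgeR adjusted p = 9.0e-06). Cxcr2 had 0 counts at 0 h (7.71, edgeR adjusted p = 0.0029). Neither gene would have reached the count minimum from its 0 h libraries alone. Dendritic and B cell markers summed to 18.1, 19.8 and 13.0 CPM at 72 h, against 1.38, 1.52 and 1.42 CPM at 0 h, and Itgax held nearly all of the 72 h sum. Itgax was the called gene, though with 4, 0 and 2 counts at 0 h it too passed the count minimum only through the 72 h libraries. Siglech, of plasmacytoid dendritic cells, had 0 counts in each 72 h library, against 0.778, 1.35 and 1.26 CPM at 0 h, and Ms4a1 and Cd79a were at 0 throughout. Of 11 T and NK cell markers none was tested, 11, 9 and 4 had no count in 72 h replicates 1, 2 and 3, and they summed to 0, 0.809 and 4.52 CPM at 72 h, against 0.432, 0.339 and 0.552 CPM at 0 h. Of the keratin markers, whose sums are given above, Krt15 was at 2157 CPM in 72 h replicate 3 and 0 of 5 tested were called. Lens fiber markers fell for 8 of 8 tested genes, and for 6 of 8 without 72 h replicate 3. Photoreceptor markers fell for 7 of 8, and their sum was 83.7, 65.0 and 178 CPM at 72 h, against 1763, 719 and 897 CPM at 0 h. Of 4 fibroblast markers Dcn and Lum rose and Pdgfra fell. The part of these cells in the changes of the 37 genes was not tested.

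**Figure D5:**
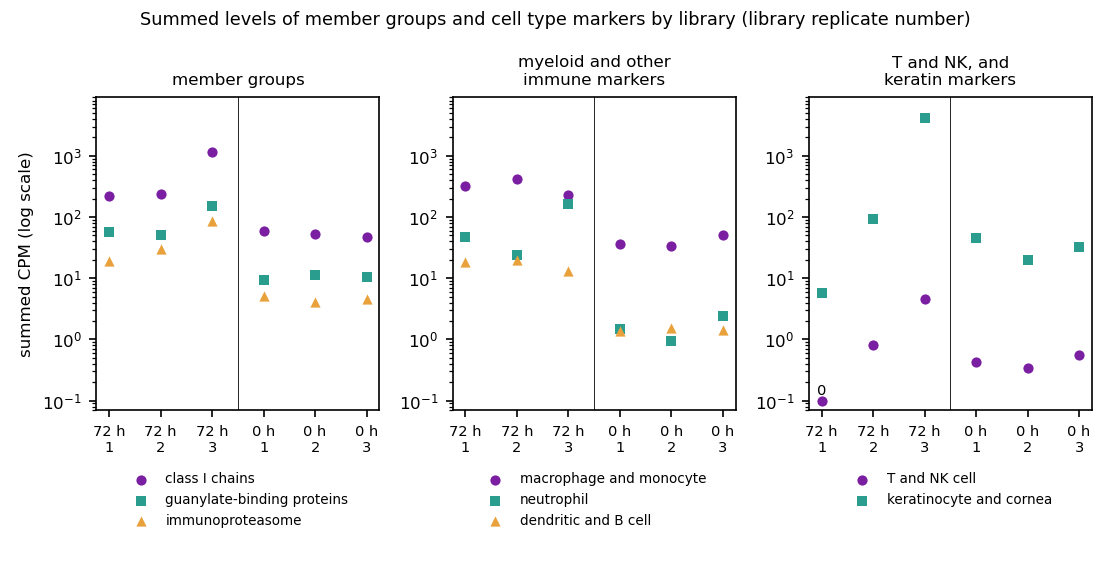
Summed CPM, on a log scale, of 3 groups of the 37 genes (left), of myeloid and other immune markers (middle) and of T and NK cell and keratin markers (right) in each 72 h and 0 h library; a point labelled 0 has no count. The class I chains sum to 221, 239 and 1150 CPM at 72 h, and of the marker sums the keratin sum has the widest gap between replicate 3 and the other 72 h libraries.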

How the data were processed

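RNA was measured in 3 libraries at 72 h and 3 at 0 h. The values used are the deposited raw counts of reads by Ensembl gene, unnormalized whole numbers. The submitters' processing notes name HISAT2, HTSeq, edgeR and the build GRCm39. Per the labels' protocols, libraries came from a stranded kit (Takara SMARTer Stranded Pico v2). The tools' versions and the strand setting of counting are not given in the sources used here; values of overlapping and antisense genes are therefore uncertain. The 5 closing lines, which name no gene and hold the reads not assigned to one (41.9% to 51.7% of reads), were left out. Symbols and exon lengths came from a GENCODE annotation of another build (GRCm38), and 51947 of 56940 genes had a symbol. The length of a gene was the union of all its annotated exons.

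Genes were filtered with filterByExpr (minimum count 10, total 15), scaled by TMM and tested with edgeR's robust quasi-likelihood test across all genes (edgeR 4.0.16, R 4.3.3; prior count 0.125; two-sided; Benjamini-Hochberg over 15407 genes), after a check on simulated data. No 2 of the 15 library pairs agreed within sampling noise (lowest chi-square per degree of freedom 7.08). Alternatives were other scalings and filters, DESeq2 1.42.0, limma 3.58.1 voom, a replicate block and each library left out. Promoter windows came from RefSeq. The 37 genes and all lists were chosen with earlier results of these data known. All 37 genes are named; of each further list up to 2 called genes with the smallest p in each direction were named, the interferon receptor chains whatever their result, and of immune marker lists those highest in mean level. Other markers, Tyk2, Jak1, Itgam, Cd68, Cxcr2, Siglech and genes listed for their low 0 h counts were named after their values were seen. One further gene of the pathway lists is not reported here.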

Additional observations from a re-analysis of the deposited data

How the results depend on the processing

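The calls of 10 of the 22 genes that rose held in every alternative run. Leaving out 1 library in turn gave between 10 and 30 genes that rose and between 0 and 1 that fell. The lowest counts came without a 0 h library, fits that have 5 libraries. Other settings gave 17 (no count minimum) to 26 (DESeq2) that rose and 1 that fell. The direction of 1 gene, Usp18, reversed, to -0.11 without 72 h replicate 3; its values ran from -0.11 to 0.99 over the fits that leave out 1 library, it was not called in any fit, and the cause was not tested. With the replicate number as a block, 18 genes rose and 1 fell (19.0% and 16.3% of all genes), and Xaf1, B2m, H2-K1 and H2-D1 lost the call (adjusted p 0.0803 to 0.144). Deviations of same-numbered libraries correlated at -0.037, 0.059 and -0.012, so the numbers were not used to pair libraries; the labels do not say whether same-numbered pools hold the same mice. The count minimum left 4 of the 37 genes untested, and with none all 37 were tested.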
